A study of Homo sapiens with 8 samples.

Results

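The proteasome subunit genes were taken as the protein-coding rows of both deposited tables whose symbol starts with PSM, one letter of A to G and a number. This name pattern found 49 of 58302 rows. They were measured in MOLM-13, an established human acute myeloid leukaemia line of the monocytic type, which carried a hairpin against circMYBL2, a circular RNA of the MYBL2 gene (sh-circMYBL2, written Sh-cricMY1 in the sample titles), or a control hairpin (sh-NC). Each hairpin had 2 ribosome footprint libraries and 2 input RNA libraries, 8 libraries in 4 groups, and no drug, dose or time is given in the labels. All groups share the same cell line, and the labels name a single circMYBL2 hairpin and do not say whether replicate libraries stem from separate cultures, so p-values measure only the spread between these libraries, which may be technical. circMYBL2 itself was not matched to a row, so its level is not given.

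The proteasome is the large protease that degrades proteins tagged with ubiquitin. Its core is a barrel of alpha rings, which gate the entry, and beta rings, which hold the catalytic sites, and the cap on its end binds, deubiquitylates, unfolds and threads the substrate. Interferon-induced immunoproteasome subunits can replace the constitutive catalytic subunits and change which peptides are cut, which matters for antigen presentation, and blood cells are known to hold more of them than most tissues. By textbook role the 49 genes fell into 7 core alpha subunits, 4 structural core beta subunits, 3 constitutive catalytic subunits, 3 immunoproteasome subunits, 6 ATPases of the cap, 11 other cap subunits, 7 assembly factors and 5 activators or inhibitors. The remaining 3 were PSMA8 and PSMB11, core subunits of testis and thymus that were listed at 0 in all 8 libraries, and PSMC3IP, a cofactor of meiotic recombination that shares only the name pattern.

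Reads on genes numbered 13504362 to 14602925 in the RNA libraries. Footprint depth was much lower, with 222842 and 715052 reads for sh-circMYBL2 (called a and b, because their columns carry no replicate number) and 80156 and 300373 reads for sh-NC libraries 1 and 2. Of the myeloid markers, 10 of 12 were at 1 FPKM or more, while CD14 and CD68 were near 0, and their summed level was 977 to 1020 FPKM in sh-circMYBL2 against 793 to 832 FPKM in sh-NC. Of these, LYZ had 754 and 705 FPKM in sh-circMYBL2 against 604 and 557 FPKM in sh-NC. Of the 10 tested markers 5 had a log2 change above 0 and 5 below. In limma 3 passed an adjusted p of 0.05 as higher and 0 as lower, beside 4.92% and 3.96% of all genes tested. They were ITGAM (0.65, adjusted p = 0.023), FLT3 (0.40, adjusted p = 0.023) and CEBPA (0.20, adjusted p = 0.047). By the mean over the 4 RNA libraries, no erythroid or lymphoid marker of 6 each reached 1 FPKM (CD3D had 1.05 FPKM in sh-NC library 2), 2 of each were at 0, and of 6 markers of adherent cells VIM did, while KRT18 had 0.963 and 0.556 FPKM in sh-circMYBL2 and 0.958 and 1.19 FPKM in sh-NC. What part these differences have in the results was not tested.

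Levels are given in FPKM for RNA and RPKM for footprints, which are reads scaled to the length of the gene and to a library total. RNA of the subunits ranged widely although the finished particle holds them in fixed numbers. PSME1, a subunit of the interferon-induced activator ring, had the highest RNA level, with 56.7 and 55.6 FPKM in sh-circMYBL2 against 46.1 and 52.2 FPKM in sh-NC. The structural core subunit PSMB1 had 46.8 and 46.1 FPKM in sh-circMYBL2 against 42.6 and 44.8 FPKM in sh-NC. PSMD7, a cap subunit that pairs with the deubiquitylase PSMD14, had 42.6 and 41.5 FPKM in sh-circMYBL2 against 42.4 and 48.3 FPKM in sh-NC. At the low end of the core stood PSMA2, a subunit of the alpha ring, with 1.12 and 1.14 FPKM in sh-circMYBL2 and 0.888 and 1.13 FPKM in sh-NC. The ring partner PSMA6 had 2.004 and 2.12 FPKM in sh-circMYBL2 and 1.92 and 2.03 FPKM in sh-NC. PSMD9, a chaperone of cap assembly, lay between 0.361 and 0.451 FPKM over the 4 libraries and fell below the filter of a mean of 1 FPKM. The lengths behind the values, 6506 bases for PSMA6, 5336 for PSMA2 and 8774 for PSMD9, are those of the gene model and can exceed the main transcript. A level of such a gene is lowered by that length, and its change on the log2(FPKM + 1) scale is then made smaller.

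**Figure D1:**
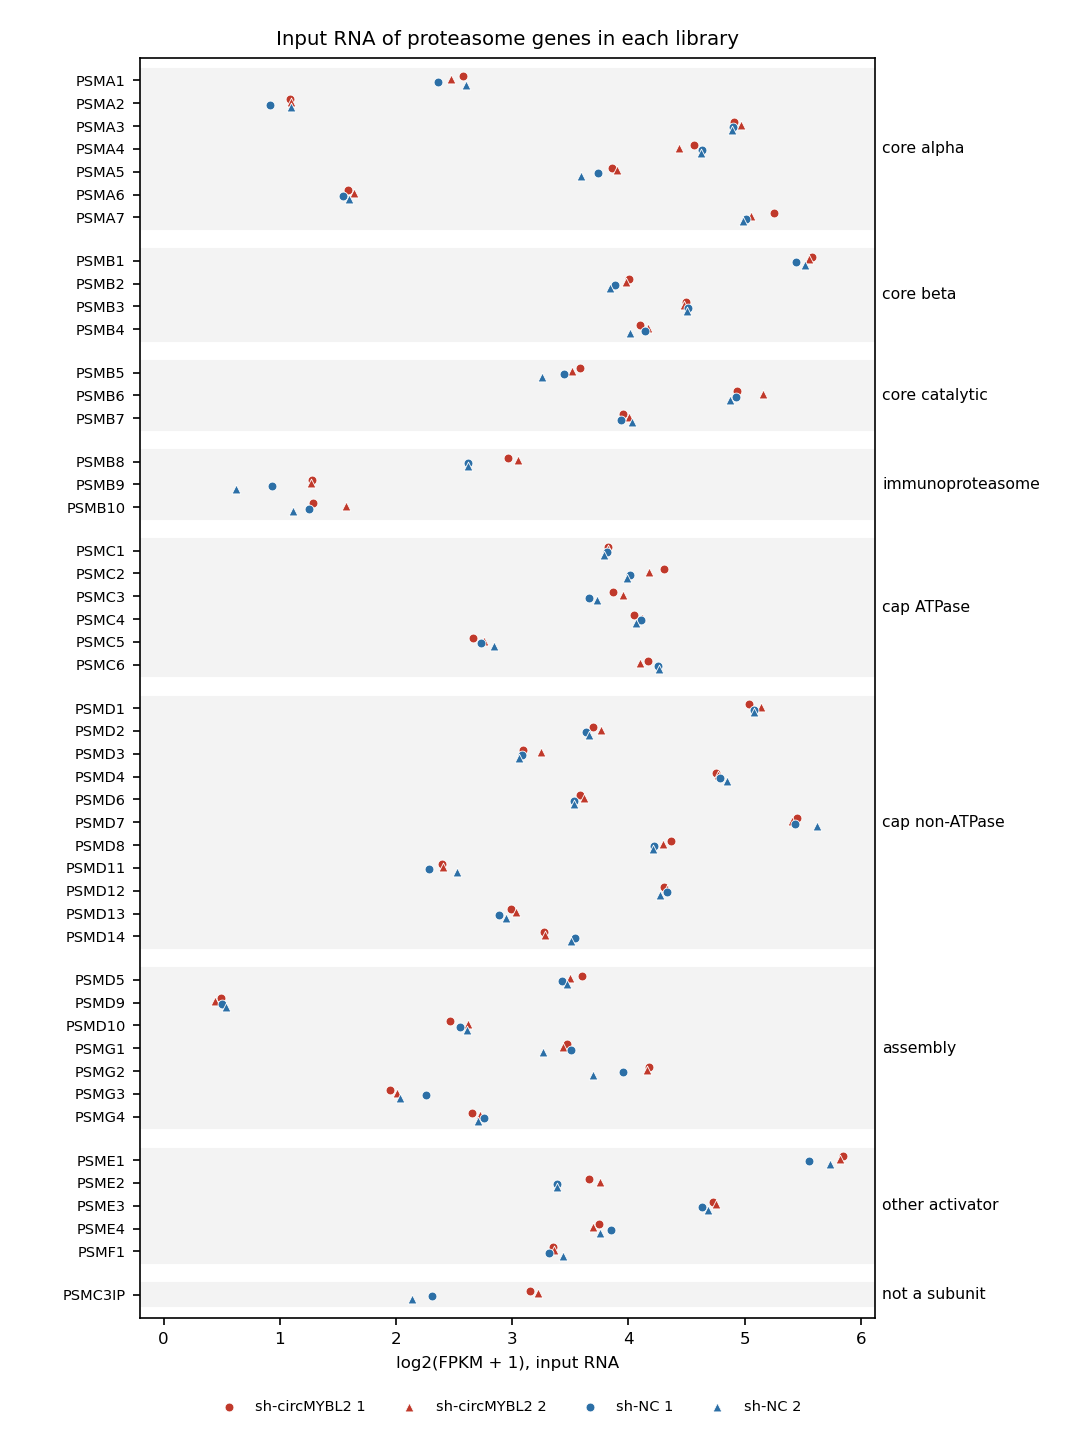
Input RNA of the 47 proteasome genes above 0, as log2(FPKM + 1) on the horizontal axis, 1 row a gene, grouped by class. Each point is 1 library, red for sh-circMYBL2 and blue for sh-NC; the immunoproteasome rows and PSMC3IP show red points to the right of all blue points.

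The first comparison asked how proteasome RNA differed between the hairpins. Most subunit RNAs differed little: over the 46 genes that passed the filter the median change was 0.07 on the log2(FPKM + 1) scale, with a range of -0.25 to 0.97, beside a median of -0.00 over all 12489 genes tested. PSMB8 and PSME2 rose, and so did PSMC3IP, which is no subunit, while PSMD14, the deubiquitylase of the cap, fell. These 4 of 46 passed an adjusted p of 0.05 in limma, against 8.88% of all genes tested, so the share was near the background. Of these, 3 were higher and 1 was lower, beside 4.92% and 3.96% of all genes tested. The groups did not overlap for 24 members that were higher and 7 that were lower in sh-circMYBL2, that is 52.2% and 15.2% of the 46, beside 30.0% and 30.7% of all genes tested. Proteasome genes, PSMC3IP included, took 0.341% and 0.343% of protein-coding RNA reads in sh-circMYBL2 against 0.326% and 0.325% in sh-NC. Wilson 95% intervals were 0.338 to 0.345 and 0.340 to 0.347 against 0.322 to 0.329 and 0.322 to 0.328. They cover counting error only. Over single genes, libraries of a group differed by more than that, so the intervals may be too narrow. The 31 core and cap genes alone took 0.252% and 0.254% in sh-circMYBL2 against 0.244% and 0.244% in sh-NC. All 4 calls were lost when any 1 of the 4 RNA libraries was left out, as was every call among all genes, and the log2 changes kept their signs.

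The immunoproteasome subunits had the largest median change of the subunit classes, 0.39. All 3 genes were above 0 with no overlap between the groups, beside 30.0% of all genes tested that were higher without overlap. PSMB9 passed the filter only through sh-circMYBL2 (mean 0.724 FPKM in sh-NC), so its place among these 3 is no separate support. It rests on 61 and 63 reads in sh-circMYBL2 and 37 and 24 in sh-NC. PSMB10 rests on 37 and 53 reads in sh-circMYBL2 and 34 and 31 in sh-NC. The class median was 0.22 over the 2 genes tested without sh-circMYBL2 RNA library 2, and 0.17 with a pseudocount of 5. PSMB8, which replaces the chymotrypsin-like catalytic subunit PSMB5, had 6.79 and 7.28 FPKM in sh-circMYBL2 against 5.13 and 5.16 FPKM in sh-NC. Its RNA rose by 0.39 (SE 0.058, adjusted p = 0.038), and both sh-circMYBL2 libraries lay above both sh-NC libraries. With 1 library left out the adjusted p was 0.128 to 0.169. PSMB9, which replaces the caspase-like subunit PSMB6, had 1.43 and 1.41 FPKM in sh-circMYBL2 against 0.905 and 0.543 FPKM in sh-NC, a difference of 0.50 (SE 0.15) that did not pass (adjusted p = 0.128). PSMB10, which replaces the trypsin-like subunit PSMB7, had 1.44 and 1.97 FPKM in sh-circMYBL2 against 1.38 and 1.16 FPKM in sh-NC, with a difference of 0.25 (0.10 to 0.39 with 1 library left out) and an adjusted p of 0.335. By level the order was PSMB8, PSMB10, PSMB9 in both groups, with the higher PSMB9 value of sh-circMYBL2 just below the lower PSMB10 value. PSMB8 and PSMB9 lie near each other in the class II region of the major histocompatibility complex, at chr6:32840717-32844679 and chr6:32854192-32859851 of GRCh38.p14, and PSMB10 lies at chr16:67934506-67936850. A long non-coding row named for the PSMB8 locus had 122 and 132 reads in sh-circMYBL2 and 120 and 128 reads in sh-NC.

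The constitutive catalytic subunits did not pass. PSMB5 had 10.98 and 10.4 FPKM in sh-circMYBL2 against 9.92 and 8.54 FPKM in sh-NC, with a difference of 0.20 and an adjusted p of 0.215. PSMB6 had 29.5 and 34.7 FPKM in sh-circMYBL2 against 29.4 and 28.3 FPKM in sh-NC, with a difference of 0.14 and an adjusted p of 0.340. With 1 library left out the difference was 0.10 to 0.29 for PSMB5 and 0.032 to 0.26 for PSMB6. PSMB7 had 14.5 and 15.1 FPKM in sh-circMYBL2 and 14.3 and 15.4 FPKM in sh-NC, and here the groups overlapped (-0.01, adjusted p = 0.943; the sign changed with the library left out). Per length, the 3 immunoproteasome RNAs made up 14.9% and 15.1% of the sum over the 3 catalytic pairs in sh-circMYBL2 against 12.1% and 11.6% in sh-NC. The ratio of PSMB8 to PSMB5 was 0.618 and 0.699 in sh-circMYBL2 and 0.517 and 0.604 in sh-NC, so the lower sh-circMYBL2 value lay just above the higher sh-NC value. With 2 libraries against 2 an exact permutation test cannot give a p below 0.333, and the ratios are given as values with no test.

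**Figure D2:**
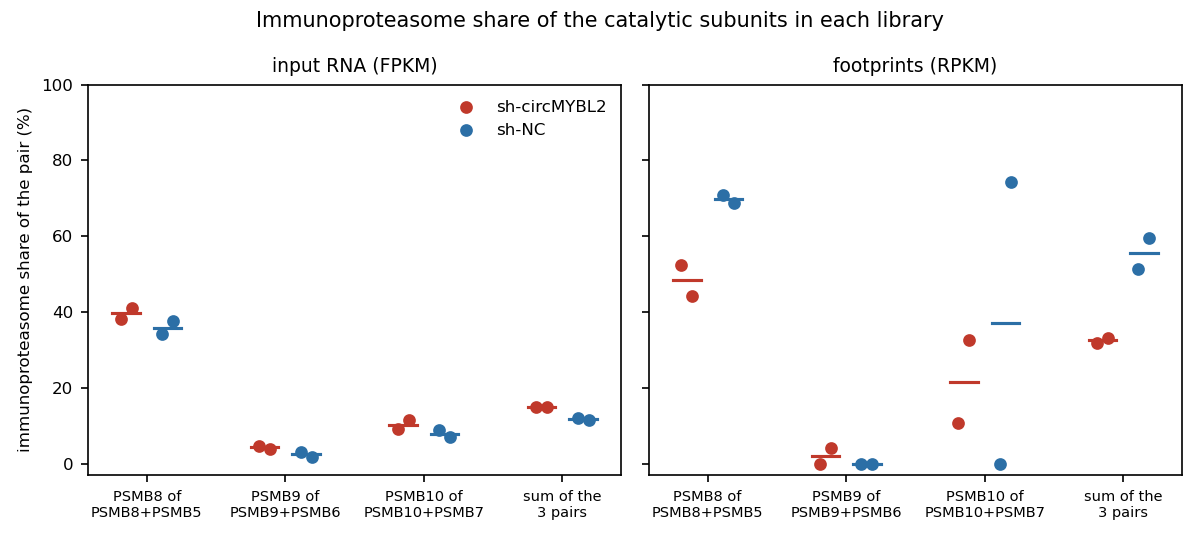
Share of the immunoproteasome subunit in each catalytic pair and in the sum of the 3 pairs, in percent of the summed FPKM (left) or RPKM (right). Points are libraries, short lines are means of 2, red for sh-circMYBL2 and blue for sh-NC. For the sum, RNA points are higher in sh-circMYBL2 and footprint points are higher in sh-NC. The sh-NC footprint points rest on 11 and 21 immunoproteasome reads.

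The activator ring that interferon also induces is built of PSME1 and PSME2, which lie close together on chromosome 14 (PSME2 at chr14:24143365-24146610). PSME2 had 11.7 and 12.5 FPKM in sh-circMYBL2 against 9.42 and 9.45 FPKM in sh-NC, so that the groups were well apart. Its RNA rose by 0.33 (SE 0.050, adjusted p = 0.040), with an adjusted p of 0.121 to 0.166 when 1 library was left out. PSME1, given above, lay higher in both sh-circMYBL2 libraries too, by 0.19, and did not pass (adjusted p = 0.163). The nuclear activator PSME3, the activator PSME4, known from mouse testis for degrading histones, and the inhibitor PSMF1 differed by between -0.08 and 0.08 and none passed. For PSME2, 2 pseudogene rows together held 3 RNA reads beside 2166 for the gene.

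Among the cap subunits, PSMD14 fell. This metalloprotease cuts ubiquitin off the substrate as it enters the cap. PSMD14 had 8.68 and 8.72 FPKM in sh-circMYBL2 against 10.6 and 10.4 FPKM in sh-NC. The difference was -0.25 (SE 0.043, adjusted p = 0.049), the groups did not overlap, and the call was also lost under quantile normalization and, as for the other 3 calls, without the filter on low values. PSMD14 lies at chr2:161308425-161411717. The other 10 non-ATPase cap subunits were PSMD1 and PSMD2, the large scaffolds, PSMD3, PSMD6, PSMD8, PSMD11, PSMD12 and PSMD13 of the lid, the ubiquitin receptor PSMD4, and PSMD7. They ranged from -0.10 for PSMD7 to 0.12 for PSMD8, and none passed. Of the 6 ATPases, which unfold the substrate, none passed. PSMC2 had the smallest p of these, with 18.8 and 17.1 FPKM in sh-circMYBL2 against 15.2 and 14.9 FPKM in sh-NC (0.24, SE 0.058, adjusted p = 0.082). PSMC1, PSMC3, PSMC4, PSMC5 and PSMC6 ranged from -0.13 for PSMC6 to 0.22 for PSMC3.

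The core scaffold and the assembly factors held no call. In the alpha ring 6 of 7 genes were above 0 and the median was 0.05. PSMA5 had 13.6 and 13.9 FPKM in sh-circMYBL2 against 12.4 and 11.1 FPKM in sh-NC (0.22, adjusted p = 0.123). PSMA4 was the one below 0, with 22.7 and 20.7 FPKM in sh-circMYBL2 against 23.8 and 23.7 FPKM in sh-NC (-0.13, adjusted p = 0.229). PSMA1, PSMA2, PSMA3, PSMA6 and PSMA7 lay between 0.04 and 0.16. In the beta ring PSMB2 had 15.1 and 14.8 FPKM in sh-circMYBL2 against 13.8 and 13.4 FPKM in sh-NC (0.13, adjusted p = 0.135), and PSMB1, PSMB3 and PSMB4 lay between -0.02 and 0.09. Among assembly factors PSMG2, a chaperone of the alpha ring, had 17.1 and 16.8 FPKM in sh-circMYBL2 against 14.5 and 11.99 FPKM in sh-NC (0.34, adjusted p = 0.113). Its partner PSMG1, the pair PSMG3 and PSMG4, and the cap chaperones PSMD5 and PSMD10 lay between -0.17 and 0.10. PSMC3IP, at chr17:42572310-42577831, had 7.89 and 8.35 FPKM in sh-circMYBL2 against 3.94 and 3.40 FPKM in sh-NC. It rose by 0.97 (SE 0.081, adjusted p = 0.015), the largest change among the 46.

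**Figure D3:**
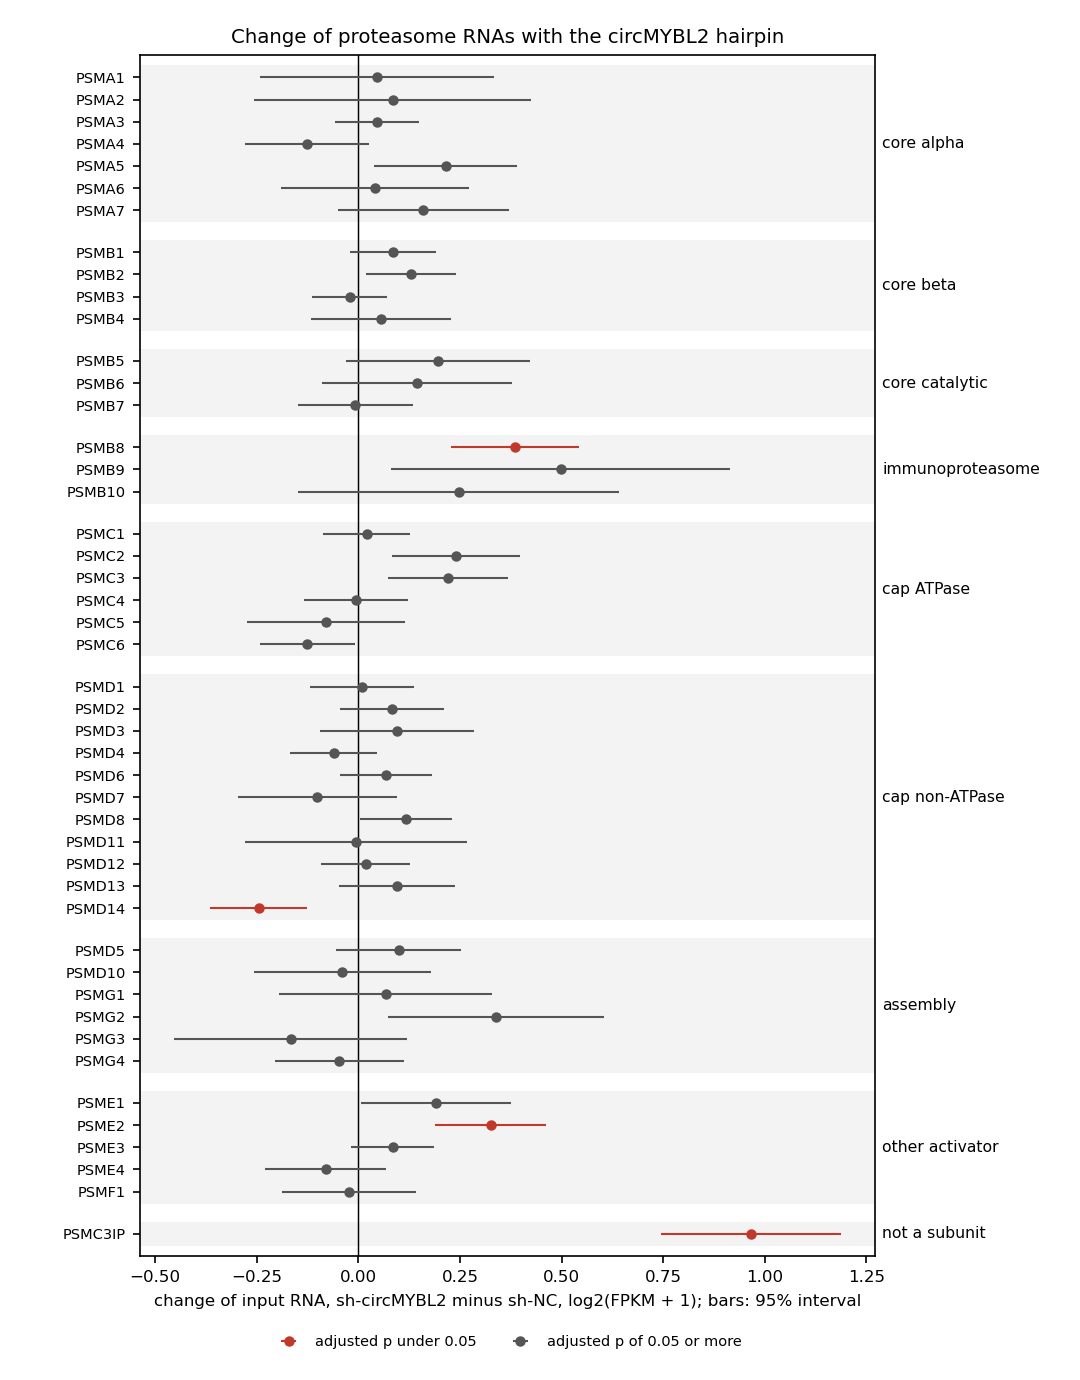
Change of input RNA between the hairpins for the 46 tested members, sh-circMYBL2 minus sh-NC on the log2(FPKM + 1) scale, with 95% intervals from limma. Red marks an adjusted p under 0.05, as for PSMB8, PSME2, PSMD14 and PSMC3IP.

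The RNA tests depended on the method. With voom on the reads recovered from the values, 12 members passed, beside 25.7% of all genes tested. In that fit PSMA5, PSMB8, PSMB9, PSMC2, PSMC3, PSMC3IP, PSME1, PSME2 and PSMG2 were higher, and PSMA4, PSMC6 and PSMD14 were lower. The rows of near copies held few reads. In all, 32 pseudogene rows of 12 members held 102 RNA reads, of which 78 were in 13 rows of PSMC1 copies beside 4514 for PSMC1. Whether reads that match both a gene and its copy were dropped is not stated. Such reads would then be missing from both rows, so these counts cannot tell how far copies affect the members. The strand setting is not stated, so reads of PSMA3 and of its antisense RNA PSMA3-AS1 are not surely told apart. PSMA3-AS1 fell (12.05 and 11.6 FPKM in sh-circMYBL2 against 16.0 and 14.8 FPKM in sh-NC, -0.36, SE 0.057, adjusted p = 0.042), whereas PSMA3 had 29.0 and 30.3 FPKM in sh-circMYBL2 and 28.8 and 28.6 FPKM in sh-NC.

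Promoters are shown for the subunits past the threshold in RNA or, as described further on for PSMC6, in footprints relative to RNA, and for the other immunoproteasome genes and PSME1, since interferon factors are known to act on these. The windows, from RefSeq on GRCh38.p14, run from 250 bases before to 50 bases after the gene start, written in the direction of the gene, and 43 of 49 members had one. Capitals mark matches, on either strand, to the interferon-stimulated response element (TTTC, a gap of any 2 bases, then TTTC again), TGACNNNGC (core of the antioxidant response element) and CCAAT, and TTCNNNGAA (gamma-activated site) had no match in these 7.
PSMB8 (chr6:32844630-32844929, minus strand, first of 2 entries): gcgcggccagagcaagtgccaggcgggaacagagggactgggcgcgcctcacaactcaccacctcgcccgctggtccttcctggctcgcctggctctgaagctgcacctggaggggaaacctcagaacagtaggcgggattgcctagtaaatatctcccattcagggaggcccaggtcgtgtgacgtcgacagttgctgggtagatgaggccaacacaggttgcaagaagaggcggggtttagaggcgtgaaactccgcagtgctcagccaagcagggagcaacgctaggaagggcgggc
PSMB9 (chr6:32853942-32854241, plus strand): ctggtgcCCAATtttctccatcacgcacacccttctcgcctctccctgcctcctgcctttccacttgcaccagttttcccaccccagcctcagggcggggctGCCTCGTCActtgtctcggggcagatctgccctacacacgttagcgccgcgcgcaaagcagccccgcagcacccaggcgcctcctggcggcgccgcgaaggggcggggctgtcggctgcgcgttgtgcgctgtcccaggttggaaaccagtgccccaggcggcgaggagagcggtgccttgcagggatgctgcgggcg
PSMB10 (chr16:67936801-67937100, minus strand): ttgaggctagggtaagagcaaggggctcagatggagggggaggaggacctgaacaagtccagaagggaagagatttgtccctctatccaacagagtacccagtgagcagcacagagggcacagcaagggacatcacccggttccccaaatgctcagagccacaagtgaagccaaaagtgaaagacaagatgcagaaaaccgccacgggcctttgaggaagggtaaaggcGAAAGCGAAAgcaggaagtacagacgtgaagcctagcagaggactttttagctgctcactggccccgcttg
PSME1 (chr14:24135944-24136243, plus strand): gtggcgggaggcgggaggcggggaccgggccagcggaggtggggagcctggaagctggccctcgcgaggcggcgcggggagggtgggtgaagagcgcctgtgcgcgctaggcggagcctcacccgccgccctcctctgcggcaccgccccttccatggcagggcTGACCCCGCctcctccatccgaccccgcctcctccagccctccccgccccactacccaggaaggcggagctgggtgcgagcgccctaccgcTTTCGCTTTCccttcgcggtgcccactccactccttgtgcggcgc
PSME2 (chr14:24146561-24146860, minus strand): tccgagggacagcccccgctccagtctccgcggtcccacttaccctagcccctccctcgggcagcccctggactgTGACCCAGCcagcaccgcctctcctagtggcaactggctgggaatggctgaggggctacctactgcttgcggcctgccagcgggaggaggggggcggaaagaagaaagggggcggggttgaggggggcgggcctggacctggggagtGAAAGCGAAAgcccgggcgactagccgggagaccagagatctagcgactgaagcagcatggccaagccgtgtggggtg
PSMD14 (chr2:161308175-161308474, plus strand): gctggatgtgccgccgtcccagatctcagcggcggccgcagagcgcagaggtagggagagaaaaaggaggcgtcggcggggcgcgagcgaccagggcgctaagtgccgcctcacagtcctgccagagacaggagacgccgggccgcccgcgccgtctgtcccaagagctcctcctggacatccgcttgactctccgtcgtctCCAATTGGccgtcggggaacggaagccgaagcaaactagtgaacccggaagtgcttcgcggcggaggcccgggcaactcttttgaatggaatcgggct
PSMC6 (chr14:52706950-52707249, plus strand): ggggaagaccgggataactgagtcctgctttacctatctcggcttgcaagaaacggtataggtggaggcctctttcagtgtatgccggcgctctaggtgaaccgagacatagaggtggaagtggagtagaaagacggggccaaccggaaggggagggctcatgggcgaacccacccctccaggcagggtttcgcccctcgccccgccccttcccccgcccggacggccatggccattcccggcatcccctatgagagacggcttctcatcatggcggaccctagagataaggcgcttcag
In PSMD14 the capitals hold 2 CCAAT matches on opposite strands that share 2 bases. PSMB10, PSME1 and PSME2 each held 1 match to the interferon-stimulated response element. PSMB9 held none to it but 1 each to TGACNNNGC and CCAAT, and PSMB8 and PSMC6 held no match to any of the 4 in this window.

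Over all 43 member windows, the interferon-stimulated response element was found in 6 (14.0%: PSMA4, PSMB10, PSMB4, PSME1, PSME2 and PSMG4), beside 3.65% of 27305 promoters of the same length. TGACNNNGC was found in 13 (30.2%, beside 13.6%), CCAAT in 20 (46.5%, beside 35.7%) and TTCNNNGAA in 5 (11.6%, beside 7.88%). A match is a description of the letters and not a site of binding.

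The second comparison took ribosome footprints, the fragments of RNA that ribosomes protect, as a measure of how much of a message is being translated. No proteasome gene passed: 0 of 41 tested members and 0 of 9431 genes (0.0%) were past the threshold in limma. In simulated data with a spread set by hand, this fit called only 1 of 63 changes of 4-fold and made 33 false calls. That spread was not taken from these libraries, so the simulation cannot say how many changes were missed here. The lack of calls is not read as a lack of change. At an unadjusted p under 0.05 there were 8 members and 1212 genes, and voom called 0 members and 32 genes (0.339%). The groups did not overlap for 13 members higher (31.7%) and 4 lower (9.76%), beside 30.7% and 10.9% of all genes tested. The median change was 0.31 over members and 0.56 over all genes, so members are read against this shift of all genes. Proteasome genes took 0.499% and 0.496% of protein-coding footprint reads in sh-circMYBL2 against 0.558% and 0.432% in sh-NC, with Wilson intervals of 0.462 to 0.540 and 0.478 to 0.514 against 0.484 to 0.643 and 0.391 to 0.477. These intervals cover counting error only.

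PSMB8 had the lowest change of the members. It had 19.3 and 16.6 RPKM in sh-circMYBL2 against 66.7 and 40.3 RPKM in sh-NC, from 47 reads in sh-circMYBL2 and 26 reads in sh-NC. Both sh-circMYBL2 libraries lay below both sh-NC libraries, opposite to its RNA, and the change was -1.49 (adjusted p = 0.328). The ratio of scaled reads was 0.353, with a counting interval of 0.214 to 0.594. This interval pools the 2 libraries of a group and leaves out the spread between them. PSMB8 was also picked as the largest fall, so the interval does not show a difference between the hairpins. PSMB10 had 2.08 and 6.301 RPKM in sh-circMYBL2 and 0 and 17.4 RPKM in sh-NC, which overlap, and PSMB9 had 2 footprint reads in all. The ratio of PSMB8 to PSMB5 was 1.10 and 0.794 in sh-circMYBL2 against 2.42 and 2.20 in sh-NC. In sh-NC it rests on 11 and 15 reads of PSMB8 and 4 and 6 reads of PSMB5. PSMB5 itself had 17.5 and 20.9 RPKM in sh-circMYBL2 and 27.5 and 18.3 RPKM in sh-NC, which overlap. The 3 immunoproteasome subunits made up 31.9% and 33.0% of the sum over the catalytic pairs in sh-circMYBL2 against 51.3% and 59.5% in sh-NC. The sh-NC shares rest on 11 and 21 immunoproteasome reads and 9 and 12 constitutive reads, so they are imprecise.

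The structural beta subunits differed in direction, with none past the threshold. PSMB1 had 75.3 and 78.4 RPKM in sh-circMYBL2 against 26.9 and 43.0 RPKM in sh-NC (1.15, adjusted p = 0.388). PSMB4 had 26.8 and 24.6 RPKM in sh-circMYBL2 against 56.3 and 57.4 RPKM in sh-NC (-1.12, adjusted p = 0.345). PSMB3 had 39.3 and 38.9 RPKM in sh-circMYBL2 against 61.9 and 50.3 RPKM in sh-NC. In these 3 the groups did not overlap, whereas PSMB2 had 15.2 and 12.6 RPKM in sh-circMYBL2 and 15.1 and 2.22 RPKM in sh-NC. In the alpha ring PSMA4 had 10.5 and 9.63 RPKM in sh-circMYBL2 against 0 and 3.85 RPKM in sh-NC (2.33, adjusted p = 0.488), resting on 94 reads in sh-circMYBL2 and 5 in sh-NC. PSME3 had 38.2 and 44.3 RPKM in sh-circMYBL2 against 16.5 and 17.8 RPKM in sh-NC (1.22, adjusted p = 0.342).

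Several genes were at 0 in both sh-NC footprint libraries. The cap ATPase PSMC6, at chr14:52707200-52728590, had 3.10 and 4.92 RPKM in sh-circMYBL2, from 47 reads, and 0 and 0 RPKM in sh-NC. With 3 reads taken as the limit for both sh-NC libraries together and the 47 reads taken as exact, its scaled footprints were 3.06-fold higher in sh-circMYBL2. This figure leaves out the counting error of the 47 reads. It also pools the 2 libraries of a group and leaves out the spread between them, so it is no lower bound on a difference between the hairpins. The genes of this paragraph were picked for their 0 in sh-NC and passed the filter only through sh-circMYBL2. PSMD10, a cap chaperone also known as gankyrin, had 4.71 and 12.8 RPKM in sh-circMYBL2 against 0 and 0 RPKM in sh-NC. By the same reckoning it was 2.47-fold higher, with the same limits. PSMG3 had 1.97 and 4.12 RPKM in sh-circMYBL2 against 0 and 0 RPKM in sh-NC, but its 10 reads give only 0.651 by this reckoning. The sh-NC libraries had 33708 and 88695 protein-coding footprint reads, against 125760 and 584180 in sh-circMYBL2, so a gene of this level can be missed there.

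**Figure D4:**
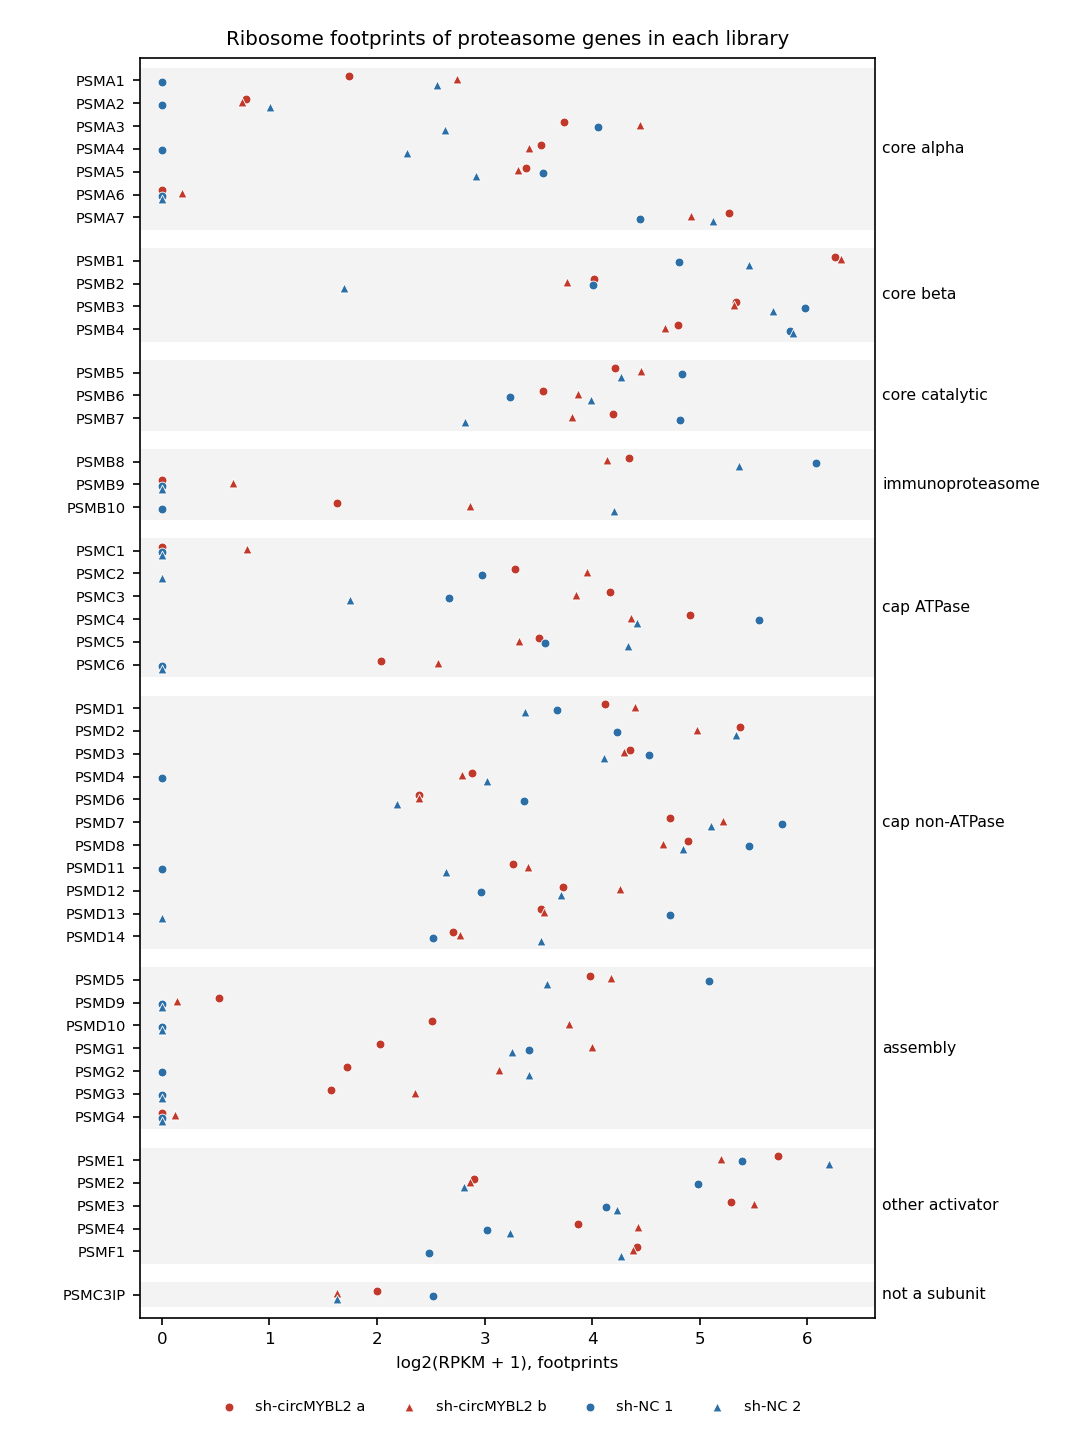
Ribosome footprints of the 47 proteasome genes above 0, as log2(RPKM + 1) on the horizontal axis, 1 row a gene, grouped by class. Each point is 1 library, red for sh-circMYBL2 and blue for sh-NC; PSMB8 and PSMB4 show blue points to the right of red ones, and PSMC6, PSMD10 and PSMG3 have both blue points at 0.

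The third comparison asked whether footprints differed between the hairpins by more or less than the RNA did. This translational efficiency (TE) was tested as the interaction of hairpin and assay. PSMC6 was the one member past the threshold, 1 of 41, beside 5.31% of 8260 genes tested, 5.05% in the same direction. With voom PSMC6 was again the one member called, beside 4.29% of genes. Its TE rose by 2.43 (SE 0.41, adjusted p = 0.035), with RNA of 17.0 and 16.1 FPKM in sh-circMYBL2 against 18.05 and 18.2 FPKM in sh-NC. That value rests on 0 footprint reads in both sh-NC libraries, and the call was lost with a pseudocount of 5, with quantile normalization, with a filter at a mean of 5 and with any 1 RNA library left out. For PSMB8 the TE change was -1.87 (SE 0.42, adjusted p = 0.064), for PSMB4 it was -1.17 (adjusted p = 0.068), for PSMD10 3.19 (adjusted p = 0.053), for PSMG3 2.13 (adjusted p = 0.069) and for PSME3 1.13 (adjusted p = 0.078). Over members the median TE change was 0.20, beside 0.57 over all genes. By class it was 0.71 in the alpha ring, 0.22 in the beta ring, -0.05 in the constitutive catalytic subunits, -0.99 in the 2 immunoproteasome subunits tested, 1.58 in the ATPases, 0.30 in the other cap subunits, 0.38 in the assembly factors and 1.05 in activators and inhibitor. The ATPase median includes PSMC6, and the assembly median includes PSMD10 and PSMG3. These genes had 0 footprint reads in both sh-NC libraries and passed the filter only through sh-circMYBL2. PSMC1 and PSMG4 did not pass the footprint filter. The filter can thus raise the medians of these classes, which are not read as traits of the classes. All class medians depended on single libraries. With 1 library left out they ranged over 0.21 to 1.06 in the alpha ring, -0.44 to 0.28 in the beta ring, -0.70 to 0.065 in the constitutive catalytic subunits and -1.86 to -0.11 in the immunoproteasome. The range was 0.40 to 2.04 in the ATPases, 0.10 to 0.46 in the other cap subunits, -0.38 to 2.09 in the assembly factors and 0.15 to 1.18 in activators and inhibitor. A single variance served both assays although footprints spread more than RNA, so these p-values may be too small.

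Footprints and RNA were also set beside each other as a ratio of RPKM to FPKM. Each ratio was taken relative to the median ratio, in the same hairpin, of 7702 protein-coding genes that passed both filters. The values place a gene within a hairpin and do not measure a change between the hairpins. PSMB8 stood at 2.998 in sh-circMYBL2 and 16.3 in sh-NC. PSMD2 had 3.39 and PSMD3 had 2.80 in sh-circMYBL2, and in sh-NC they had 3.89 and 4.05. Their TE changes were 0.30 for PSMD2 and -0.09 for PSMD3. PSMD4, the ubiquitin receptor, stood low with 0.278 in sh-circMYBL2 and 0.205 in sh-NC. PSMC1 had 13.2 and 13.2 FPKM of RNA in sh-circMYBL2 and 13.1 and 12.8 FPKM in sh-NC, yet 5 footprint reads in sh-circMYBL2 and 0 in sh-NC. PSMG4 with 1 footprint read in all and PSMA6 with 1 were alike in this. PSMC1 and PSMA6 have 13 and 4 pseudogene rows, and whether short footprints that match such copies were dropped was not tested.

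**Figure D5:**
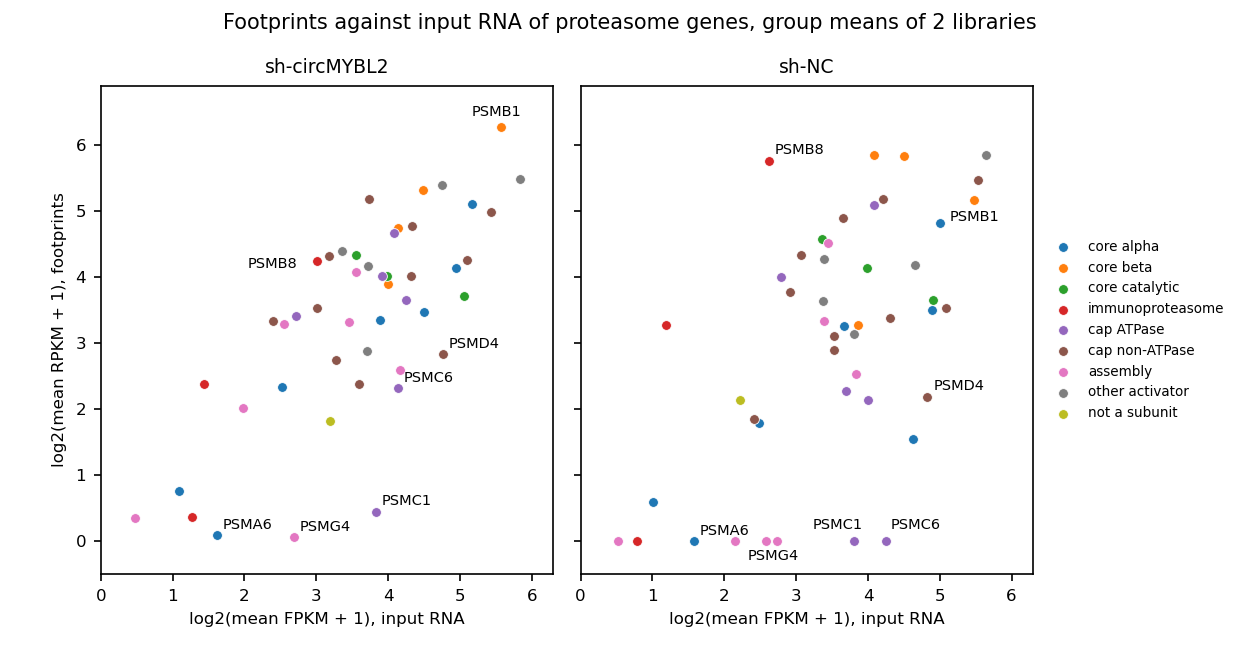
Mean footprint level, log2(RPKM + 1), against mean input RNA, log2(FPKM + 1), for 47 proteasome genes in sh-circMYBL2 (left) and sh-NC (right), coloured by class. Genes with RNA but few footprints, PSMC1, PSMG4 and PSMA6, lie along the bottom in both panels, and PSMC6 does so in sh-NC.

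Other genes of the pathway were read from lists of known roles. In the NRF1 route, by which cells raise proteasome genes when the proteasome is short, 2 of 10 tested RNAs fell and none rose. For this and the other lists, 4.92% of all genes tested were higher and 3.96% lower. NFE2L1, the NRF1 factor, had 20.8 ± 0.243 FPKM in sh-circMYBL2 and 30.8 ± 0.440 FPKM in sh-NC (SD, n = 2 each), and it fell by 0.55 (adjusted p = 0.011). OGT, which adds sugar to proteins including NRF1, fell by 0.39 (adjusted p = 0.014). Of 14 cap cofactors outside the name pattern ZFAND2A, known to be induced by arsenite, fell by 0.30 (adjusted p = 0.049), and none rose. Of 12 substrate delivery genes UBQLN2, a shuttle that carries ubiquitylated proteins to the proteasome, rose by 0.71 (adjusted p = 0.017). Of 9 deubiquitylases OTUD5 rose by 0.27 (adjusted p = 0.043). None of 6 ubiquitin and activation genes passed, and UBA1, the main ubiquitin-activating enzyme, had the smallest p (0.23, adjusted p = 0.088).

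The antigen processing and interferon list had 3 of 19 tested RNAs higher. ERAP2, a peptidase that trims peptides, rose by 0.43 (adjusted p = 0.023). TAPBP, which loads peptides onto class I molecules, rose by 0.32 (adjusted p = 0.038). IRF1, an interferon factor that acts on immunoproteasome genes, had 3.73 and 3.53 FPKM in sh-circMYBL2 against 2.54 and 2.33 FPKM in sh-NC, and rose by 0.43 (adjusted p = 0.0497). In TE, ERAP2 was higher (2.70, adjusted p = 0.028; 0 footprints in both sh-NC libraries) and TAP2, a subunit of the peptide transporter, was lower (-2.55, adjusted p = 0.040). As for the members, all of these RNA calls and both TE calls were lost when any 1 RNA library was left out, and both TE calls also with quantile normalization (adjusted p = 0.155 for ERAP2 and 0.084 for TAP2).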

How the data were processed

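Ribosome footprints and input RNA of 8 libraries were analysed. The authors deposited a table of footprint RPKM and a table of input RNA FPKM, and the submitters' processing notes list cutadapt, HISAT2, Bowtie, DESeq2, featureCounts and build hg38. The versions and the strand setting were not given in the sources used here. The values are reads scaled to gene length and a library total. Reads were recovered by choosing for each gene the smallest length that made its values whole within 0.001 reads in every library. Such a length was found for 30193 of 30194 genes above 0, so wholeness is no check on the reads. In simulated data the recovered reads were exact in every library for 87.3% of 2784 genes. The recovered reads gave depths, counting intervals (95%) and the floor of 3 reads. Symbols came from the footprint table, since 27 in the RNA table had turned into dates.

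Each table was fitted with limma 3.58.1 in R 4.3.3 (lmFit, two-sided eBayes with trend) after log2(value + 1), keeping genes whose mean level reached 1, as sh-circMYBL2 minus sh-NC; TE was the interaction over all 8 libraries. Benjamini-Hochberg adjustment ran over all genes tested, with a threshold of 0.05. The pseudocount of 1 shrinks changes of low genes. Alternatives were pseudocounts of 0.1 and 5, no filter or a mean of 5, quantile normalization, voom with TMM factors on the recovered reads, each library left out and a replicate block. Scripts were tested on simulated data. Members and lists were chosen with earlier results of these data known. Full values are given for members past the threshold, the smallest RNA p in each class, the catalytic pairs, and the largest footprint rise and fall at a mean of 5 RPKM or more; of other lists, for members past the threshold or the smallest p. PSMB1, PSMB3, PSMB4, PSMD10, PSMG3, PSME1, PSME3, PSMA3-AS1, the low and high level genes, the markers given by name and TAP2 were chosen after their values were seen. Over single genes, libraries of a group differed by more than sampling noise. A result of the antigen processing list is not reported here.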

Additional observations from a re-analysis of the deposited data

Results flagged for a closer look

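Of the 41 members tested in both assays, 5 lay on one side of sh-NC in RNA and on the other side in footprints, in both sh-circMYBL2 libraries of each assay. The share of all genes with such opposite sides was not counted. In RNA alone, 30.0% of all genes tested were higher and 30.7% lower without overlap, and in footprints 30.7% and 10.9%. The 5 of 41 are therefore not read as a trait of the proteasome genes. PSMB8 was higher in RNA and lower in footprints in sh-circMYBL2 (footprint change -1.49). PSMA4, PSMC6, PSME4 and PSMG3 were lower in RNA and higher in footprints, with footprint changes of 2.33, 2.30, 1.02 and 1.96. These opposite sides were picked without a test. The interaction of hairpin and assay (TE) gave PSMC6 a change of 2.43 (adjusted p = 0.035 in limma), and the other 4 did not pass it.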

How the results depend on the processing

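The 4 RNA calls among members became 0 without a filter and 0 with the replicate number as a replicate block, 12 with voom, and 0 with any 1 library left out (limma; 5 to 9 higher and 1 to 3 lower at an unadjusted p under 0.05); over all genes, 1109 became 97, 0, 3206 and 0. The deviations of the libraries numbered 1 from their group means were nearly uncorrelated (r = 0.03 over 12489 genes). This cannot exclude a shared culture or batch that touches part of the genes. The labels do not say whether libraries of the same number belong together, so it is not known whether the block applies. No paired analysis was possible for footprints and TE because the footprint columns of sh-circMYBL2 carry no replicate number. In footprints members called were 0 to 3 and all genes called 0 to 746 with 1 library left out, and 32 genes with voom. In TE, members called were 6 with a pseudocount of 0.1, and 0 with a pseudocount of 5, a mean of at least 5 or quantile normalization; all genes called were 853, 2, 42 and 0. With 1 library left out TE called 0 to 26 members and 0 to 4953 genes, the most without sh-NC footprint library 2; the cause was not tested. The median RNA change of members was 0.047 with a pseudocount of 5 and 0.032 to 0.091 with 1 library left out. That of footprints was 0.17 with a pseudocount of 5, 0.13 at a mean of at least 5, 0.023 with quantile normalization and 0.20 to 0.66 with 1 left out. That of TE was 0.31 with a pseudocount of 0.1, -0.042 at a mean of at least 5, -0.068 with quantile normalization, 0.086 with voom and 0.13 to 0.52 with 1 left out. PSMB7 RNA ranged from -0.053 to 0.039 with 1 left out and changed sign. Footprint depth limits what can be said of low genes.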
